A study of Mus musculus with 18 samples.

Results

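Expression of 10 genes that mark macrophages and other leukocytes was followed through the fetal and newborn mouse ovary: Ptprc, Csf1r, Cd68, Lyz2, Ctss, Adgre1 (named Emr1 in the files), Aif1, C1qa, C1qb and Cx3cr1. They were chosen by name and not by their values. Every non-control probe that carried one of these names was taken, which gave 19 of 41174 probes, for 10 of 27396 named genes. All 10 passed the filter on dim probes, and the brightest probe, which stood for the gene, was well above background on all 18 arrays.

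The study compared whole ovaries (XX gonads) of mice that were wild type or knockout for Elavl2, the gene of an RNA-binding ELAV protein. Ovaries were taken before birth at stages E15.5 and E17.5 (days of embryonic development) and at P0, the day of birth. There were thus 6 groups, one per genotype and stage, with 3 samples each, and every sample had its own 1-colour Agilent array. The strain and the deleted part of Elavl2 are not given in the sources used here, and the labels call the sample type mixed without saying of what. Nothing in them says that the samples are from different animals, so each p-value rests on the spread between samples that may be technical replicates. A level is the log2 signal minus the 75th percentile of its array. A difference is between 2 levels and is followed by ± its standard error, and SD is named where it is meant. Called means that limma gave a gene an adjusted p (Benjamini-Hochberg) under 0.05.

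Macrophages enter fetal organs early and settle there. The receptor encoded by Csf1r keeps them alive when it binds either of its ligands, CSF1 or IL34, and CX3CR1 is the receptor for the chemokine made from Cx3cl1. In tissues under remodelling macrophages engulf dying cells, break them down in lysosomes with cathepsins and lysozyme, and secrete the C1q chains that start the classical complement cascade.

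The 18 arrays came in 2 runs on 7 slides. Run A held every E15.5 array and replicate 3 of both E17.5 groups, and run B the rest, so the run was a term of the fit. At E15.5 and P0 no slide held both genotypes of the stage, and at E17.5 only the arrays numbered 3 shared one. The level of Elavl2 in the knockout differed from wild type by -0.11 at E15.5 (limma adjusted p = 0.750), -0.87 at E17.5 (0.00448) and -1.36 at P0 (9.09e-06), and since the deleted part is not given, its probe may lie outside it. All 5 germ cell genes and all 4 granulosa cell genes of the lists used were above background on every array. S100a9, S100a8, Camp and Ngp, which neutrophils express, had their 2 highest levels of the series on the same pair of arrays. S100a9 stood at 7.13 on E17.5 knockout replicate 3 against 2.64 and 2.63 on the other arrays of that group, and at 6.19 on P0 wild type replicate 2 against -0.05 and 2.29. It was 6.03 on E17.5 wild type replicate 3, close below. Mpo, a gene of immature granulocytes, did not follow this split: it stood at 3.67 on the first array of the pair but at -3.02 on the other, below -0.12 on P0 wild type replicate 1, and it was 2.29 on E17.5 wild type replicate 1 against -4.52 and -3.55. Slc4a1 and Alas2, genes of red cells, were also higher on each array of the pair than on the others of its group. Slc4a1 stood at 4.36 against 0.78 and 2.40, and at 2.49 against -3.29 and -2.06. Alas2 stood at 4.95 against 3.28 and 3.78, and at 3.06 against 0.08 and 0.31. The platelet gene Ppbp was 0.58 on the first array against -3.97 and -3.61, but not well above background on the other. Results that rest on the pair are given with and without it. In whole ovaries, fewer cells of a type and less RNA per cell cannot be told apart.

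By stage, the mean level of 9 of the 10 genes was highest in an E17.5 group, the knockout for 7 genes and the wild type for Ptprc and Cx3cr1. Ctss was highest in the P0 knockout. From E17.5 to P0, Adgre1 fell in both genotypes, and Cd68, Aif1 and Cx3cr1 fell in the knockout. Between genotypes, none of the 10 was called at E15.5, where 1.62% of the 19298 genes tested were. Cd68 was 1.45-fold higher in the knockout at E17.5, where 1.33% of all genes were called higher. Ctss, C1qa and Adgre1 were 1.31-fold, 1.35-fold and 1.31-fold higher at P0, where 18.3% of all genes were.

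**Figure D1:**
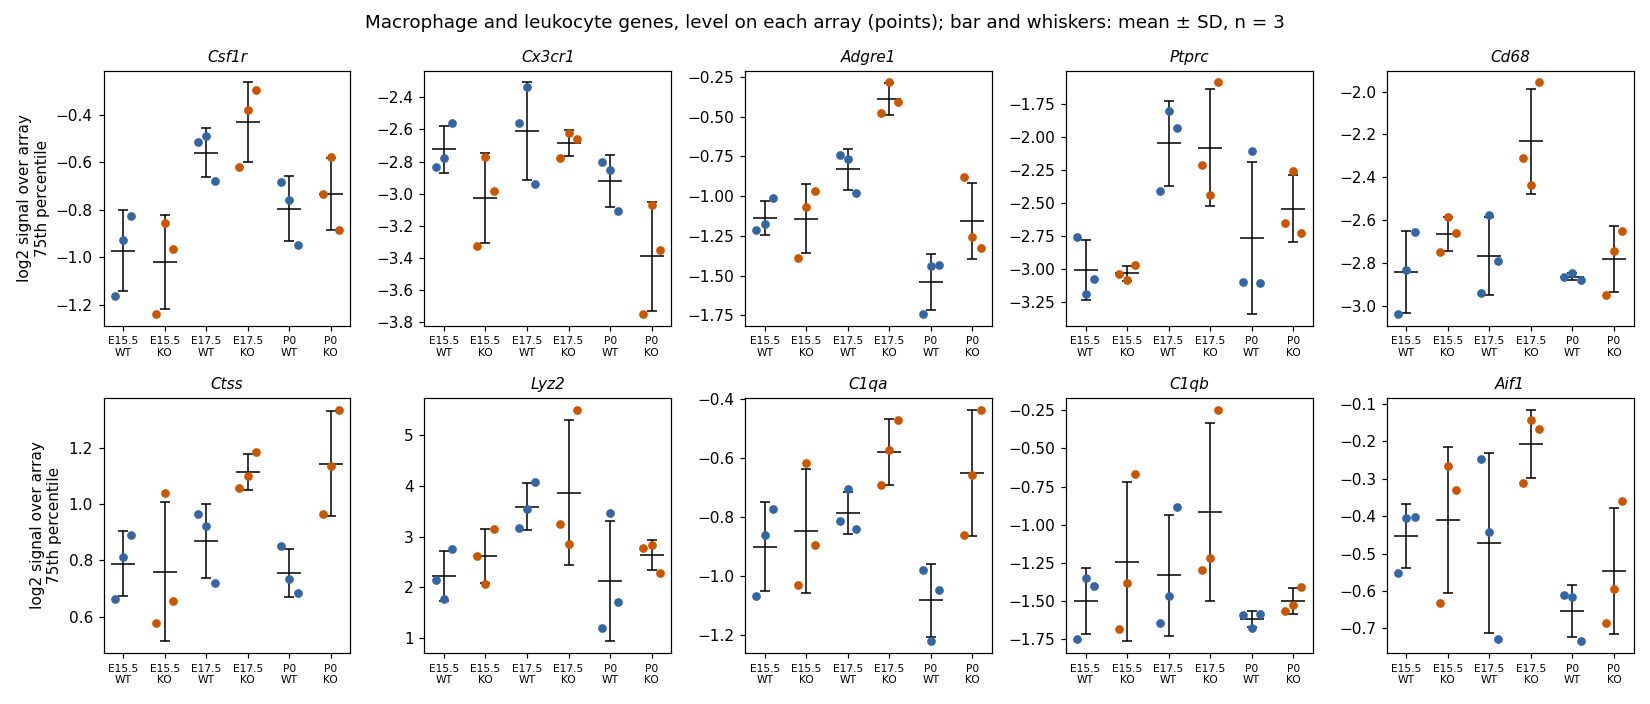
Level of each of the 10 genes (log2 signal minus the 75th percentile of the array, vertical axis, own scale per panel) on each of the 18 arrays, by stage and genotype (WT wild type, blue; KO knockout, orange). Bars are the mean ± SD of 3 arrays. Adgre1 is lower at P0 than at E17.5 in both genotypes, and Lyz2 and Ptprc each have 1 high array in the P0 wild type group.

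Csf1r, the receptor on which macrophage survival depends, was read by the probe at chr18:61290384-61290443 (mm9, plus strand). The wild type levels of Csf1r were -1.16, -0.93 and -0.83 at E15.5, -0.51, -0.49 and -0.68 at E17.5, and -0.68, -0.76 and -0.95 at P0. The knockout levels were -1.24, -0.86 and -0.96 at E15.5, -0.62, -0.38 and -0.30 at E17.5, and -0.73, -0.58 and -0.89 at P0. In each genotype all E17.5 arrays lay above all E15.5 arrays, and the genotypes overlapped at every stage. The rise from E15.5 to E17.5 was 0.60 ± 0.16 (limma adjusted p = 0.0204) in the knockout. In wild type the difference was 0.42 ± 0.16 (limma adjusted p = 0.0713), which did not pass. The knockout call was lost without E17.5 knockout replicate 3 (0.34, limma adjusted p = 0.372) and without E15.5 knockout replicate 1 (0.49, limma adjusted p = 0.0591). A second probe above background on all arrays gave differences of the same sign in both steps.

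Cx3cr1, the receptor for the Cx3cl1 chemokine, was read at chr9:119959018-119959077 (mm9, minus strand). Wild type ovaries gave Cx3cr1 at -2.84, -2.78 and -2.56 at E15.5, -2.56, -2.34 and -2.94 at E17.5, and -2.80, -2.85 and -3.11 at P0. Knockout ovaries gave -3.32, -2.77 and -2.98 at E15.5, -2.78, -2.62 and -2.66 at E17.5, and -3.75, -3.07 and -3.35 at P0. All 3 knockout arrays at P0 were lower than all 3 at E17.5, and 2 of them were lower than any wild type array of the series. The knockout fell from E17.5 to P0 by 0.78 ± 0.19 (limma adjusted p = 0.00742), a 1.72-fold decrease. In wild type the difference was -0.39 ± 0.19 (limma adjusted p = 0.126), and the test of the change in genotype difference between these stages gave -0.39 ± 0.26 (limma adjusted p = 0.347). At P0 the knockout stood -0.47 ± 0.18 (limma adjusted p = 0.0642) from wild type, with overlapping arrays, and Cx3cr1 was the only gene of the 10 below 0 there.

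The second Cx3cr1 probe was above background on 10 of 18 arrays and on 0 of 3 in the P0 knockout, so its levels there are only bounds. Its step from E17.5 to P0 in wild type was 0.66, opposite in sign to the first probe. With both probes averaged the knockout fall was not called (-0.64, limma adjusted p = 0.129), a value that rests on those levels at background. With the first probe, the P0 genotype difference was called without P0 knockout replicate 2 (-0.63, limma adjusted p = 0.0254) or E15.5 knockout replicate 1 (-0.47, limma adjusted p = 0.0498).

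Adgre1 encodes F4/80, a surface protein by which mouse macrophages are commonly recognised. Its probe lay at chr17:57622843-57622902 (mm9, plus strand), and its other probe was above background on 0 arrays. Adgre1 read -1.21, -1.18 and -1.01 at E15.5, -0.74, -0.77 and -0.98 at E17.5, and -1.74, -1.44 and -1.43 at P0 in wild type ovaries. It read -1.39, -1.07 and -0.97 at E15.5, -0.48, -0.28 and -0.40 at E17.5, and -0.88, -1.26 and -1.33 at P0 in knockout ovaries. In each genotype the 3 arrays at P0 were lower than the 3 at E17.5. The fall from E17.5 to P0 was -0.75 ± 0.15 (limma adjusted p = 0.00134) in wild type and -0.81 ± 0.15 (limma adjusted p = 0.000971) in the knockout, 1.68-fold and 1.75-fold. Both calls held in each of 32 alternative analyses, with differences from -0.91 to -0.65 in wild type and from -0.94 to -0.70 in the knockout. The knockout had risen from E15.5 to E17.5 by 0.67 ± 0.17 (limma adjusted p = 0.0139), or 0.54 (limma adjusted p = 0.205) without E17.5 knockout replicate 3.

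All 3 knockout arrays of Adgre1 lay above all 3 wild type arrays both at E17.5 and at P0. The differences were 0.44 ± 0.14 (limma adjusted p = 0.0900) and 0.38 ± 0.14 (limma adjusted p = 0.0455), so that of P0 was called. It was lost in 19 of 31 alternatives, with values from 0.25 to 0.52 and adjusted p up to 0.180. The lowest was without P0 knockout replicate 1, and without P0 wild type replicate 1 it was 0.28 (limma adjusted p = 0.173). Over the mean of the 3 stages Adgre1 was 0.27 ± 0.08 (limma adjusted p = 0.0235) higher in the knockout, and without replicate 3 of either E17.5 group the call was lost (0.25, limma adjusted p = 0.0603 without that of the knockout).

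Ptprc, the CD45 phosphatase of all leukocytes, was read by a probe printed in 10 spots at chr1:139960089-139960148 (mm9, minus strand). In wild type ovaries Ptprc stood at -2.75, -3.19 and -3.07 at E15.5, -2.41, -1.80 and -1.93 at E17.5, and -3.09, -2.10 and -3.10 at P0. In knockout ovaries it stood at -3.04, -3.08 and -2.97 at E15.5, -2.22, -2.44 and -1.59 at E17.5, and -2.65, -2.25 and -2.73 at P0. Every E17.5 array was above every E15.5 array of its genotype. The rise was 1.26 ± 0.31 (limma adjusted p = 0.0113) in wild type and 1.25 ± 0.31 (limma adjusted p = 0.0134) in the knockout. Without E17.5 knockout replicate 3 these were 1.07 (limma adjusted p = 0.0512) and 0.87 (limma adjusted p = 0.252), and without E17.5 wild type replicate 3 the first was 1.64 (limma adjusted p = 0.0647).

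At P0, Ptprc in wild type replicate 2 stood above all 5 other arrays of the stage. The step from E17.5 to P0 in wild type was -0.56 ± 0.27 (limma adjusted p = 0.106) with it and -0.90 (limma adjusted p = 0.00762) without it. No genotype difference of Ptprc was called, with -0.03 ± 0.25 and -0.03 ± 0.25 before birth (E15.5 and E17.5) and 0.22 ± 0.25 at P0.

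Cd68 is a heavily glycosylated membrane protein of macrophage endosomes and lysosomes. Its sequence is shown because the genotype call at E17.5 rests on this single probe, at chr11:69478314-69478373 (mm9, minus strand).
Cd68 probe: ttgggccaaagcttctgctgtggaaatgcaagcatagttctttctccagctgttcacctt
The wild type levels of Cd68 were -3.04, -2.83 and -2.65 at E15.5, -2.94, -2.58 and -2.79 at E17.5, and -2.87, -2.85 and -2.88 at P0. The knockout levels were -2.75, -2.59 and -2.66 at E15.5, -2.31, -2.43 and -1.96 at E17.5, and -2.95, -2.75 and -2.65 at P0. The 3 E17.5 knockout arrays were higher than every other array of the series, replicate 3 the highest. The genotype difference was 0.53 ± 0.13 (limma adjusted p = 0.0339) at E17.5, against 0.18 ± 0.13 at E15.5 and 0.08 ± 0.13 at P0. The test of its change from E17.5 to P0 gave -0.45 ± 0.18 (limma adjusted p = 0.123), and -0.60, limma adjusted p = 0.0454, without E17.5 wild type replicate 2. Over the mean of the stages Cd68 was 0.27 ± 0.07 (limma adjusted p = 0.0185) higher, or 0.22, limma adjusted p = 0.0539, without E17.5 knockout replicate 3.

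Within run A, where 1 E17.5 knockout array faced 1 wild type array on the same slide, the Cd68 difference was 0.83, and within run B, with 2 against 2, it was 0.39. In run B the E17.5 genotypes were on different slides, so genotype and slide cannot be told apart there. Cd68 was not called with a block for the replicate number, which pairs the E17.5 arrays by number (limma adjusted p = 0.103). Whether samples were paired this way cannot be told from the run. The call was also lost without E17.5 knockout replicate 1 (0.54, limma adjusted p = 0.0579), 2 (0.61, limma adjusted p = 0.0738) or 3 (0.39, limma adjusted p = 0.212). It was lost without E17.5 wild type replicate 1 (0.47, limma adjusted p = 0.123) or 3 (0.39, limma adjusted p = 0.211) and without E15.5 wild type replicate 2 (0.53, limma adjusted p = 0.0526).

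By stage, knockout Cd68 rose from E15.5 to E17.5 by 0.56 ± 0.16 (limma adjusted p = 0.0233) and then fell by 0.49 ± 0.13 (limma adjusted p = 0.0129). The rise was lost without E17.5 knockout replicate 3 (0.26, limma adjusted p = 0.462) or E15.5 knockout replicate 1 (0.52, limma adjusted p = 0.0608). The fall of Cd68 held in each of 32 alternatives. In wild type the same steps were 0.20 ± 0.16 and -0.03 ± 0.13, not called.

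Ctss encodes cathepsin S, a protease that also trims the invariant chain of class II molecules, and was read at chr3:95360162-95360221 (mm9, plus strand). Wild type ovaries gave Ctss at 0.66, 0.81 and 0.89 at E15.5, 0.96, 0.92 and 0.72 at E17.5, and 0.85, 0.73 and 0.68 at P0. Knockout ovaries gave 0.58, 1.04 and 0.66 at E15.5, 1.06, 1.10 and 1.18 at E17.5, and 0.96, 1.13 and 1.34 at P0. Every knockout array lay above every wild type array at E17.5 and at P0, and the genotypes overlapped at E15.5. The differences were 0.25 ± 0.13 (limma adjusted p = 0.275) at E17.5 and 0.39 ± 0.13 (limma adjusted p = 0.0304) at P0, so that of P0 was called. The P0 call was lost in 9 of 31 alternatives, among them without P0 wild type replicate 2 (0.38, limma adjusted p = 0.0798) or 3 (0.35, limma adjusted p = 0.0811), or P0 knockout replicate 2 (0.39, limma adjusted p = 0.0607) or 3 (0.29, limma adjusted p = 0.117). No step between stages was called for Ctss.

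Lyz2 encodes lysozyme, which cleaves bacterial cell walls and is abundant in neutrophils as well as in macrophages. Its probe lay at chr10:116714450-116714509 (mm9, minus strand). Lyz2 read 2.15, 1.78 and 2.75 at E15.5, 3.16, 3.54 and 4.08 at E17.5, and 1.20, 3.46 and 1.71 at P0 in wild type ovaries. It read 2.63, 2.07 and 3.14 at E15.5, 3.24, 2.86 and 5.51 at E17.5, and 2.79, 2.84 and 2.29 at P0 in knockout ovaries. The highest array was E17.5 knockout replicate 3, and P0 wild type replicate 2 stood above all other arrays of P0. The rise from E15.5 to E17.5 was 2.43 ± 0.64 (limma adjusted p = 0.0153) in wild type, where the stages did not overlap, and 2.32 ± 0.64 (limma adjusted p = 0.0224) in the knockout, where they did. These fits carry a difference of -1.59 of run B from run A, and the plain differences of means were 1.37 and 1.25. Without the run term neither was called (limma adjusted p = 0.134 and 0.173).

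Without E17.5 knockout replicate 3, the rise of Lyz2 was 1.85 in wild type (limma adjusted p = 0.0747) and 1.16 in the knockout (limma adjusted p = 0.430), and the knockout rise was also lost without E15.5 knockout replicate 2 (2.04, limma adjusted p = 0.0657). No genotype difference of Lyz2 was called, with 0.52 ± 0.52 at P0. Without both arrays highest in S100a9 that of P0 was 1.18 (limma adjusted p = 0.0292). The P0 arrays then left had S100a9 at -0.05 and 2.29 in wild type and at 5.08, 5.36 and 3.82 in the knockout. This value therefore compares genotypes that are unequal in S100a9. The step of Lyz2 from E17.5 to P0 in wild type was -0.94 ± 0.55 (limma adjusted p = 0.183), and -1.61 (limma adjusted p = 0.0157) without P0 wild type replicate 2.

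C1qa and C1qb encode the A and B chains of C1q, which recognises antibody-coated and dying cells. They are neighbours on chromosome 4, with probes at chr4:136452409-136452468 (mm9, minus strand) and chr4:136436578-136436637 (mm9, minus strand). Each had 1 probe, shown because the results for each gene rest on it.
C1qa probe: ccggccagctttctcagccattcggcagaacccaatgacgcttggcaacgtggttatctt
C1qb probe: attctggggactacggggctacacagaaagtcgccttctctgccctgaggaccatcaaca
In wild type ovaries C1qa stood at -1.07, -0.86 and -0.77 at E15.5, -0.81, -0.71 and -0.84 at E17.5, and -0.98, -1.22 and -1.05 at P0. In knockout ovaries it stood at -1.03, -0.62 and -0.90 at E15.5, -0.69, -0.57 and -0.47 at E17.5, and -0.86, -0.66 and -0.44 at P0. All 3 knockout arrays were above all 3 wild type arrays at E17.5 and at P0, and the genotypes overlapped at E15.5. The difference was 0.21 ± 0.13 (limma adjusted p = 0.368) at E17.5 and 0.43 ± 0.13 (limma adjusted p = 0.0219) at P0. The P0 call of C1qa was lost in 4 of 31 alternatives, among them without P0 wild type replicate 2 (0.36, limma adjusted p = 0.0872) and without P0 knockout replicate 3 (0.32, limma adjusted p = 0.0891). Over the mean of the stages C1qa was 0.23 ± 0.07 (limma adjusted p = 0.0392) higher, a call lost in 13 of 30 alternatives, with adjusted p up to 0.166.

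The wild type levels of C1qb were -1.75, -1.35 and -1.40 at E15.5, -1.64, -1.47 and -0.88 at E17.5, and -1.59, -1.68 and -1.59 at P0. The knockout levels were -1.68, -1.38 and -0.67 at E15.5, -1.29, -1.22 and -0.25 at E17.5, and -1.56, -1.53 and -1.41 at P0. The 3 highest C1qb arrays were the 3 arrays of 1 slide of run A, replicate 3 of the E15.5 knockout and of both E17.5 groups. The fitted rise from E15.5 to E17.5 was 0.73 ± 0.24 (limma adjusted p = 0.0418) in wild type and 0.88 ± 0.24 (limma adjusted p = 0.0213) in the knockout, with a difference of -0.84 of run B from run A. The stages overlapped in both genotypes, the plain differences were 0.17 and 0.33, and without the run term neither was called (limma adjusted p = 0.707 and 0.443). The calls were lost in 21 of 31 and 7 of 31 alternatives, and without E17.5 knockout replicate 3 the rises were 0.61 and 0.66. At P0 the knockout arrays of C1qb lay just above the wild type arrays, and the difference was 0.12 ± 0.20 (limma adjusted p = 0.665).

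Aif1, which encodes the calcium-binding cytoplasmic protein IBA1, was read at chr17:35307959-35308018 (mm9, minus strand). Wild type ovaries gave Aif1 at -0.55, -0.40 and -0.40 at E15.5, -0.25, -0.44 and -0.73 at E17.5, and -0.61, -0.62 and -0.74 at P0. Knockout ovaries gave -0.63, -0.27 and -0.33 at E15.5, -0.31, -0.14 and -0.17 at E17.5, and -0.69, -0.60 and -0.36 at P0. All 3 knockout arrays at P0 were lower than those at E17.5, and the genotypes overlapped at every stage. The fall in the knockout was -0.39 ± 0.13 (limma adjusted p = 0.0304), and in wild type the difference was -0.24 ± 0.13 (limma adjusted p = 0.160). The knockout call of Aif1 was lost in 10 of 32 alternatives, with values from -0.51 to -0.22. Among those were the removals of replicate 3 of E17.5 wild type (0.0678), replicates 2 and 3 of E17.5 knockout (0.103 and 0.0679) and replicates 1 and 2 of P0 knockout (0.0999 and 0.0730, all limma adjusted p). The second Aif1 probe, above background on every array, gave -0.46 and -0.33 for these steps.

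**Figure D2:**
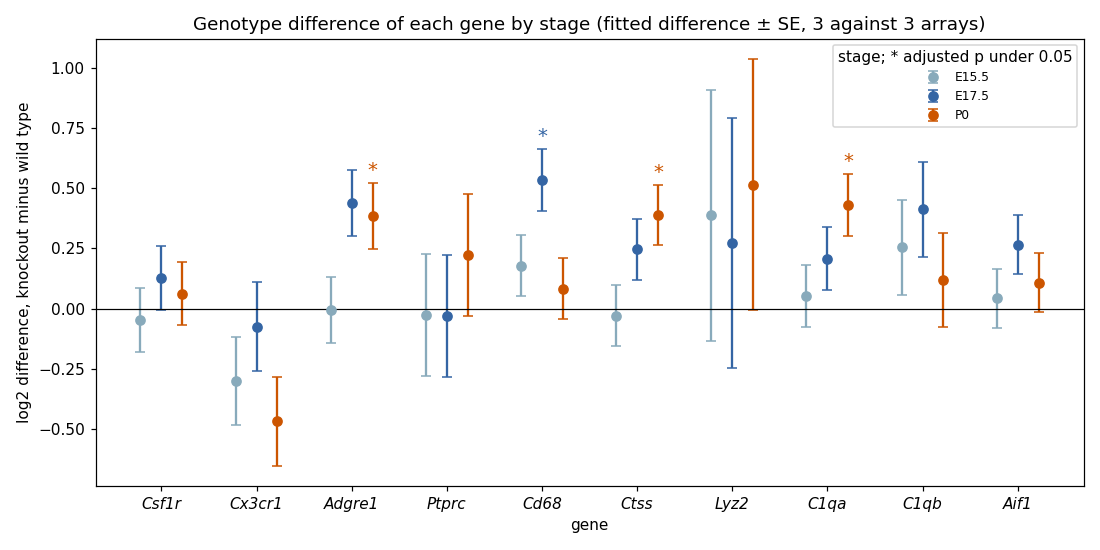
Fitted log2 difference of knockout minus wild type with its standard error (vertical axis) for each of the 10 genes at E15.5, E17.5 and P0, 3 arrays against 3. Cd68 at E17.5 and Ctss, C1qa and Adgre1 at P0 passed the test. Cx3cr1 lies below 0 at all 3 stages.

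Between genotypes few of the 10 were called, and the share of all genes called is given beside each count. At E15.5 limma called 0 of the 10, beside 1.62% of the 19298 genes tested, with 0 at an unadjusted p under 0.05, and 0 did not overlap between genotypes, beside 23.8%. At E17.5, 1 of 10 was higher, beside 1.33% of all genes, and 4 did not overlap (Cd68, Ctss, C1qa and Adgre1), beside 19.1%. At P0, 3 of 10 were higher, beside 18.3%, and 4 did not overlap (Ctss, C1qa, C1qb and Adgre1), beside 48.3%. Over the mean of the stages 3 of 10 were higher, beside 14.1%. For E15.5, E17.5 and P0 in that order, the median difference of the 10 was 0.02, 0.26 and 0.17, beside 0.01, 0.05 and 0.00 over all genes. Without the pair of arrays highest in S100a9, limma called 0 of the 10 at E17.5, 1 at P0 (Lyz2) and 0 over the mean of the stages. The P0 genotypes were then unequal in S100a9, as given for Lyz2 above. Scaling to the array median in place of the 75th percentile moved the median of all genes at P0 to 0.14, and the called genes that were higher from 3533 of 6648 to 5235 of 7137. At E17.5 these were 257 of 808 and 76 of 385. No called difference of the 10 genes changed its sign under any alternative.

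From E15.5 to E17.5, 3 of 10 rose in wild type, beside 15.3% of all genes, and 6 of 10 in the knockout, beside 11.8%. Genes whose stages did not overlap numbered 4, beside 49.3%, and 5, beside 36.4%. Both counts of calls went to 0 without E17.5 knockout replicate 3, which with E17.5 wild type replicate 3 is the E17.5 array that shares a run with E15.5. From E17.5 to P0, 1 of 10 fell in wild type, beside 21.2%, and 4 of 10 in the knockout, beside 19%. Genes whose stages did not overlap numbered 3, beside 50.8%, and 6, beside 43.6%. Without P0 wild type replicate 2 the wild type count was 3, Lyz2 and Ptprc being added. With array median scaling it was 6 (Ptprc, Csf1r, Adgre1, Aif1, C1qa and Cx3cr1), and the knockout count was 3. That scaling also moved the median of all genes below 0 in the wild type step, and most calls over all genes were then falls. The values are given with the processing below, and the 21.2% is not the share to set beside the 6. The 2 steps share the E17.5 arrays. For a change of the genotype difference between stages limma called 0 of 10 from E15.5 to E17.5, beside 0.306%, and 0 of 10 from E17.5 to P0, beside 10.4%, with 1 and 1 at an unadjusted p under 0.05.

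The ligand Il34 moved far more than any of the 10 genes did between genotypes. It encodes the second ligand of the receptor made by Csf1r. In wild type ovaries Il34 stood at -0.64, -0.69 and -0.67 at E15.5, -0.74, -0.98 and -0.45 at E17.5, and 2.01, 2.06 and 1.72 at P0. In knockout ovaries it stood at -0.87, -0.58 and -0.77 at E15.5, -0.90, -0.98 and -1.04 at E17.5, and -0.30, -0.22 and 0.23 at P0. The 3 wild type arrays at P0 were the highest of the series, and the 3 knockout arrays at P0 lay between them and all others. Il34 rose from E17.5 to P0 by 2.71 ± 0.16 (limma adjusted p = 4.26e-07) in wild type and by 0.93 ± 0.16 (limma adjusted p = 0.000672) in the knockout. At P0 the knockout was -2.03 ± 0.15 (limma adjusted p = 2.32e-06) from wild type, and the change of the genotype difference from E17.5 to P0 was -1.78 ± 0.21 (limma adjusted p = 0.000547). The genotype difference ranged from -2.19 to -1.89 over 31 alternatives, all called, as were the other 3 in theirs. At E15.5 and E17.5 it was -0.08 ± 0.15 and -0.25 ± 0.15, not called. Il34 has 1 probe.

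Csf1 encodes the first ligand of the same receptor. Wild type ovaries gave Csf1 at -2.31, -2.37 and -2.36 at E15.5, -2.18, -2.18 and -2.00 at E17.5, and -1.89, -1.94 and -1.96 at P0. Knockout ovaries gave -2.45, -2.42 and -1.71 at E15.5, -1.88, -1.80 and -1.10 at E17.5, and -1.53, -1.60 and -1.73 at P0. The highest array was E17.5 knockout replicate 3, and the knockout arrays lay above the wild type arrays at E17.5 and P0 without overlap. The differences of Csf1 were 0.53 ± 0.16 (limma adjusted p = 0.0904) and 0.31 ± 0.16 (limma adjusted p = 0.158), neither called, and 0.33 ± 0.10 (limma adjusted p = 0.0224) over the mean of the stages. Its rise in the knockout from E15.5 to E17.5 was 0.90 ± 0.20 (limma adjusted p = 0.00737), or 0.53 (limma adjusted p = 0.251) without that array.

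Cx3cl1 encodes the ligand of CX3CR1. Cx3cl1 read 1.29, 1.21 and 1.30 at E15.5, 1.46, 1.39 and 1.19 at E17.5, and 1.65, 1.58 and 1.58 at P0 in wild type ovaries. It read 1.11, 1.05 and 1.23 at E15.5, 1.31, 1.55 and 1.27 at E17.5, and 1.90, 1.95 and 1.91 at P0 in knockout ovaries. The 3 knockout arrays at P0 were the highest of the series, followed by the 3 wild type arrays at P0. The P0 difference of Cx3cl1 was 0.32 ± 0.07 (limma adjusted p = 0.00389) and was called in each of 31 alternatives. Those that leave out an array of another stage cannot move this difference. In the knockout Cx3cl1 rose from E17.5 to P0 by 0.48 ± 0.07 (limma adjusted p = 0.000358), the step in which Cx3cr1 fell, and in wild type the difference was 0.19 ± 0.07 (limma adjusted p = 0.0533).

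**Figure D3:**
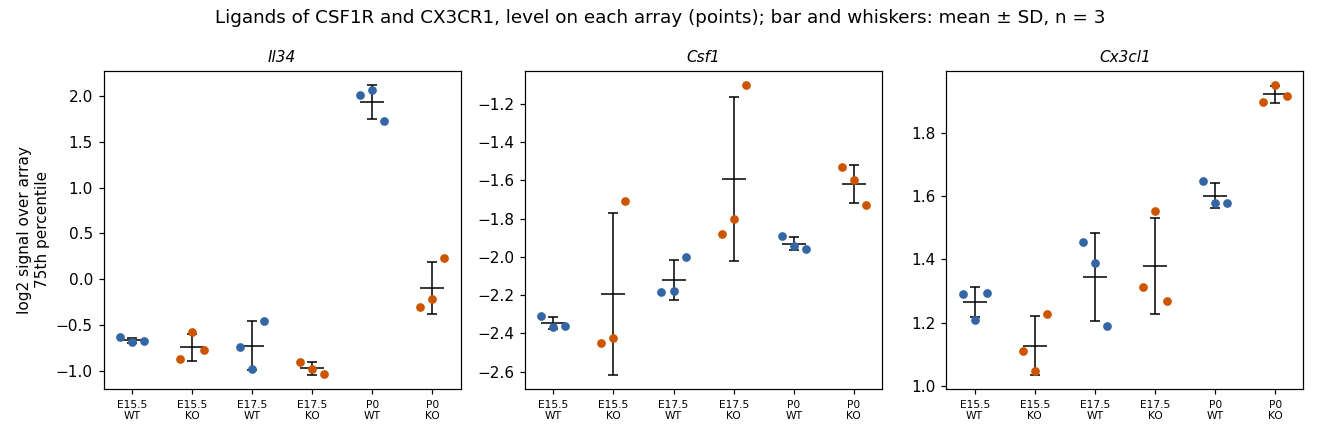
Level (log2 signal minus the 75th percentile of the array, vertical axis) of Il34 and Csf1, ligands of the receptor made by Csf1r, and of Cx3cl1, the ligand of CX3CR1, on each array by stage and genotype (WT wild type, blue; KO knockout, orange). Bars are the mean ± SD of 3 arrays. Il34 at P0 lies between 1.72 and 2.06 in wild type and between -0.30 and 0.23 in knockout ovaries.

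Of 13 ligands, chemokines and growth factor receptors, 5 were higher and 1, Il34, was lower in the knockout at P0, beside 18.3% higher and 16.1% lower among all genes, with a median of 0.31. Cxcl12, a stromal chemokine, was 0.63 ± 0.08 (limma adjusted p = 9.92e-05) higher, and Csf2ra, the alpha chain of the GM-CSF receptor, 0.40 ± 0.07 (limma adjusted p = 0.000914). Csf2rb, the beta chain, was called at 0.73 ± 0.15 (limma adjusted p = 0.00240), but a second probe above background on all arrays gave -0.69. At E15.5 and E17.5 limma called 0 and 0 of the 13, beside 1.62% and 4.19% of all genes, with 2 and 3 at an unadjusted p under 0.05.

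Of 26 other macrophage and myeloid genes 25 were measured, and 4 of them were higher and 0 lower in the knockout at P0, beside 18.3% and 16.1% of all genes, so that the share called higher was near that of all genes. The median was 0.22. Maf, a transcription factor of tissue macrophages, was 0.50 ± 0.08 (limma adjusted p = 0.000791) higher. C1qc, the third C1q chain, was 0.54 ± 0.14 (limma adjusted p = 0.0109) higher, and Cd163, a haemoglobin scavenger receptor, 0.76 ± 0.27 (limma adjusted p = 0.0421), a call lost in 14 of 31 alternatives. Sirpa, a receptor that restrains engulfment, was called at 0.48 ± 0.11, while its other probes gave 0.05 and 0.17. At E15.5 and E17.5 limma called 0 of the 25, with 4 and 6 at an unadjusted p under 0.05 and medians of 0.09 and 0.23.

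From E15.5 to E17.5, 9 of these 25 rose and 2 fell in wild type, and 11 rose and 0 fell in the knockout, beside rises in 15.3% and 11.8% and falls in 11.1% and 9.99% of all genes. Fcgr2b, an inhibitory antibody receptor, rose by 1.38 ± 0.17 (limma adjusted p = 0.000166) in wild type and 1.54 ± 0.17 (limma adjusted p = 5.63e-05) in the knockout, with its other 2 probes in the same direction, and both calls held in each of 31 alternatives. From E17.5 to P0, 2 rose and 5 fell in wild type, and 3 rose and 4 fell in the knockout, beside rises in 22.1% and 18.2% and falls in 21.2% and 19% of all genes. Ly86, a partner of the receptor RP105, changed by -0.91 ± 0.16 in wild type and -0.57 ± 0.16 in the knockout. Trem2, a lipid receptor of macrophages, changed by -0.66 ± 0.17 and -0.52 ± 0.17. Lyve1, a hyaluronan receptor that lymphatic vessels share, rose by 0.73 ± 0.20 and 0.79 ± 0.20.

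Genes of complement, engulfment and the lysosome, which many cells besides macrophages express, were also counted at P0, where 18.3% of all genes were called higher and 16.1% lower in the knockout. With array median scaling 5235 of 7137 called genes were higher there, and these lists were not counted again under it. Of 11 complement genes 6 were higher and 0 lower, with a median of 0.26. Serping1, the C1 inhibitor, was 0.54 ± 0.11 (limma adjusted p = 0.00280) higher. Of 11 genes for clearing dying cells 5 were higher and 1 lower, with a median of 0.20. Axl, a receptor that binds dying cells through GAS6, was 0.42 ± 0.07 (limma adjusted p = 0.00102) higher. Cd36, a scavenger receptor, was the lower one, at -0.41 ± 0.13 (limma adjusted p = 0.0285), and had been higher at E17.5 by 0.77 ± 0.13 (limma adjusted p = 0.0104). Of 14 lysosomal genes 5 were higher and 0 lower, with a median of 0.19. Ctsl, cathepsin L, was 0.35 ± 0.06 (limma adjusted p = 0.000902) higher and Npc2, a sterol carrier, 0.35 ± 0.06 (limma adjusted p = 0.00137).

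Class II antigen presentation genes split, with 2 higher and 1 lower of 6 in the knockout at P0, beside the same shares of all genes. H2-Aa, the alpha chain of the class II molecule, stood at -3.22, -3.12 and -3.14 in wild type and -4.89, -5.04 and -4.33 in knockout ovaries, without overlap. The difference was -1.59 ± 0.21 (limma adjusted p = 0.000131), or -0.56 after normexp background correction and quantile normalization. H2-DMa and H2-DMb1, which load peptides onto class II molecules, were 0.78 ± 0.15 (limma adjusted p = 0.00176) and 0.53 ± 0.12 (limma adjusted p = 0.00616) higher.

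Markers of other cells were measured beside these genes, and at P0 their counts stand against 18.3% higher and 16.1% lower among all genes. At that stage 5 of 7 endothelial genes were higher in the knockout and 0 lower, including Pecam1 at 0.60 ± 0.09 and Cdh5 at 0.57 ± 0.12. Their summed level (the log2 of the summed relative signals) was 3.12 to 3.35 over the wild type arrays and 3.51 to 3.76 over the knockout arrays, with all 7 above background. Of 5 germ cell genes 2 were higher, Tex101 and Dazl, with summed levels of 7.17 to 7.20 and 7.07 to 7.34. Of 10 T, B and NK cell genes 1 was higher and 3 were lower, with -0.37 to -0.09 and -0.99 to 0.04. Of 9 neutrophil and mast cell genes limma called 0, with 0 at an unadjusted p under 0.05, and the summed level was 2.83 to 6.62 and 4.43 to 5.92. Red cell genes summed to 5.49 to 7.15 and 6.0 to 6.18, and platelet genes to 0.22 to 0.43 and 0.11 to 0.85. The part of these cells in the P0 differences was not tested.

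At E17.5 the summed level of neutrophil and mast cell genes was 5.60 to 6.43 in wild type and 4.2 to 7.64 in knockout ovaries, that of red cell genes 7.08 to 7.68 and 7.68 to 8.76, and that of platelet genes 0.07 to 0.30 and 0.24 to 2.66. At E15.5 neutrophil and mast cell genes summed to 2.12 to 5.17 and 3.29 to 5.57. Between those stages 3 of 9 rose in each genotype, all of them mast cell proteases, beside 15.3% and 11.8% of all genes. Cpa3 rose by 1.67 ± 0.36 in wild type and 2.52 ± 0.36 in the knockout, Tpsb2 by 2.82 ± 0.53 and 3.52 ± 0.53, and Mcpt4 by 3.76 ± 0.69 and 4.37 ± 0.69. Their part in the rise of Ptprc and Lyz2 was not tested.

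From array to array the 10 genes did not vary as a block. The residuals of the fit, in which the group means and the run are removed, were correlated between genes over the 18 arrays. Over 45 pairs the median Pearson correlation was 0.38, with 37 pairs above 0 and the lowest at -0.29. Pairs of all genes were not computed, so neither these counts nor the pairs that pass below can be called particular to the 10. For every gene, the fit makes the residuals of the wild type and the knockout E17.5 array of run A equal and opposite. Permutation within groups does not keep this, so the p-values are approximate, and exact means only that all permutations were taken. The 18 residuals of a gene carry 11 degrees of freedom. By exact permutation within groups (46656 permutations) and adjustment over the 45, 8 pairs passed by Pearson's r, all above 0, and 8 by Spearman's rho. Aif1 and C1qa passed only by Pearson's r, and Ctss and Cx3cr1 only by Spearman's rho. Ctss and C1qa had Pearson's r of 0.91 and Spearman's rho of 0.90 (exact permutation p = 0.000364 and 0.000257, adjusted 0.0164 and 0.0116). It was 0.85 without the 2 farthest arrays, 0.97 in run A and 0.84 in run B. Ctss and Aif1 had Pearson's r of 0.83 and Spearman's rho of 0.81 (exact permutation p = 0.00225 and 0.00377, adjusted 0.0338 and 0.0294). Their r was 0.80 without the 2 farthest arrays, 0.81 in run A and 0.87 in run B. Csf1r and Cx3cr1 had Pearson's r of 0.77 and Spearman's rho of 0.85 (exact permutation p = 0.00360 and 0.000622, adjusted 0.0405 and 0.0140). For this pair r was 0.72 without the 2 farthest arrays, 0.94 in run A and 0.61 in run B.

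Ptprc and Lyz2 had Pearson's r of 0.80 and Spearman's rho of 0.70 (exact permutation p = 0.00731 and 0.00868, adjusted 0.0470 and 0.0488). The correlation was 0.64 without the 2 farthest arrays, 0.55 in run A and 0.90 in run B. Residuals were also set against those of the summed levels of 6 marker lists, 60 relations in all, of which 2 passed, by either measure. A sum is carried by its brightest genes, so a relation is not one with every gene of a list. In the E17.5 knockout the neutrophil and mast cell list reached 7.64. On replicate 3 of that group S100a9 stood at 7.13, and the mast cell genes Cpa3, Tpsb2 and Mcpt4 at 3.17, 0.99 and -0.20. The red cell list of the group reached 8.76, and Hba-a1 stood at 8.47 on that array. Lyz2 and the neutrophil and mast cell list had Pearson's r of 0.89 and Spearman's rho of 0.86 (exact permutation p = 0.000493 and 0.000257, adjusted 0.0148 and 0.0154). That r was 0.86 without the 2 farthest arrays, 0.81 in run A and 0.97 in run B. Ptprc and the same list had Pearson's r of 0.77 and Spearman's rho of 0.72 (exact permutation p = 0.000322 and 0.000772, adjusted 0.0148 and 0.0231). That r was 0.68 without the 2 farthest arrays, 0.79 in run A and 0.85 in run B. Lyz2 and the red cell list came near in size but did not pass. They had Pearson's r of 0.84 and Spearman's rho of 0.84 (exact permutation p = 0.00842 and 0.00345, adjusted 0.168 and 0.0690). Ptprc and the red cell list had 0.66 and 0.52 (exact permutation p = 0.0870 and 0.122, adjusted 0.559 and 0.757). These p-values are approximate for the reason given above. The arrays of a run share their processing, and the part of processing in these correlations was not tested.

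**Figure D4:**
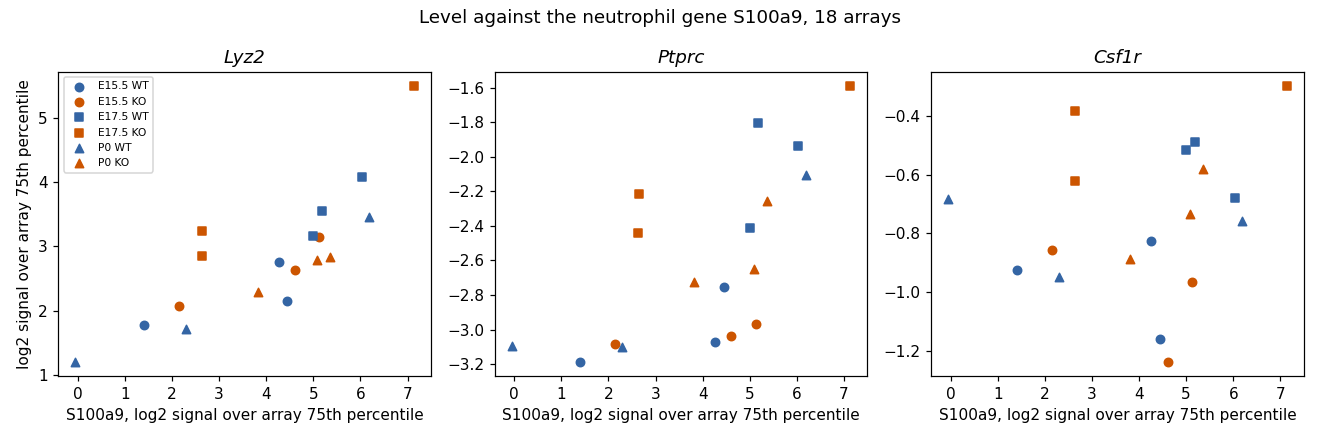
Level of Lyz2, Ptprc and Csf1r (vertical axes) against that of the neutrophil gene S100a9 (horizontal axes), each as log2 signal minus the 75th percentile of the array, on 18 arrays (blue wild type, orange knockout; marker shape gives the stage). E17.5 knockout replicate 3, at 7.13 on the horizontal axis, is the highest array for all 3 genes.

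**Figure D5:**
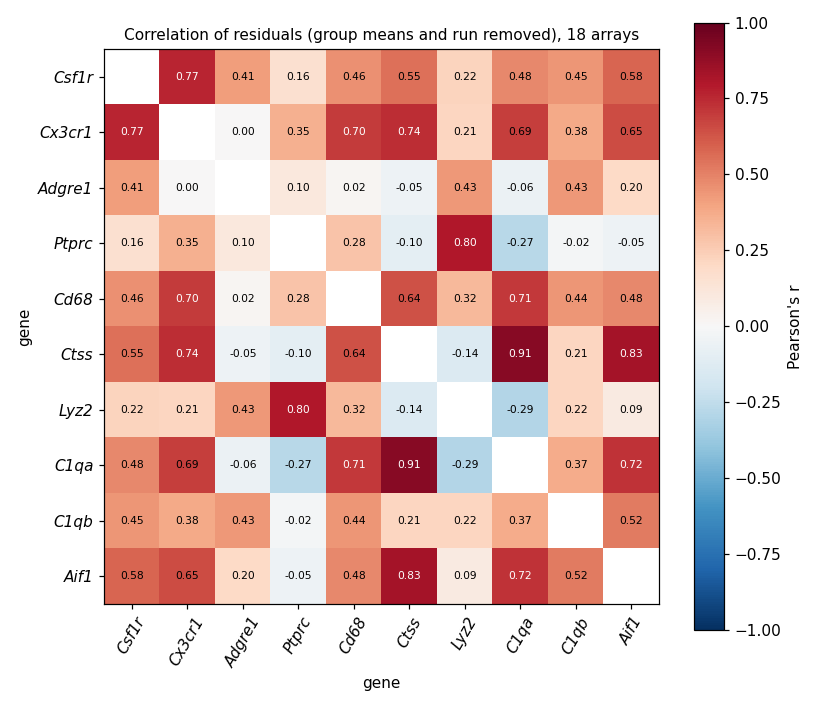
Pearson correlation over 18 arrays between the residuals of each pair of the 10 genes, with group means and run removed (colour scale, red positive and blue negative). Ctss, C1qa, Aif1 and Cx3cr1 correlate with each other at 0.65 to 0.91, and Lyz2 and C1qa at -0.29.

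Over all 18 arrays, 8 other genes had the levels most like the mean of the standardised levels of the 10. By Pearson correlation these were Tyrobp (0.92, Spearman's rho 0.91), Cd48 (0.89, Spearman's rho 0.87), Sqor (0.89, Spearman's rho 0.87), Fcer1g (0.88, Spearman's rho 0.83), Nckap1l (0.87, Spearman's rho 0.73), Islr (0.87, Spearman's rho 0.83), Tnfaip8l2 (0.86, Spearman's rho 0.79) and Mrc1 (0.86, Spearman's rho 0.84). Tyrobp and Fcer1g encode adaptors of immune receptors, and Mrc1 encodes the mannose receptor. These values describe the arrays, which share stages, runs and scaling.

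Promoter windows, the 250 bases before the RefSeq start (RefSeq, GRCm38.p6, a different build from the probe positions), are shown for Ctss and Aif1, whose residuals went together, and for Lyz2, whose residuals went with Ptprc. Capitals mark GAGGAA, read on either strand (TTCCTC on the other), the core of sites bound by PU.1, the myeloid transcription factor encoded by Spi1.
Ctss promoter, chr3:95526536-95526785, plus strand: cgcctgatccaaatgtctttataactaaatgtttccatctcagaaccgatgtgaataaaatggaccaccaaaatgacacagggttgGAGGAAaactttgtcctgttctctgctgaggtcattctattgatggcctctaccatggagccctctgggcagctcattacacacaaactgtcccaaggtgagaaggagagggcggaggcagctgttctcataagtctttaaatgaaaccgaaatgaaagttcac
Aif1 promoter, chr17:35176053-35176302, minus strand: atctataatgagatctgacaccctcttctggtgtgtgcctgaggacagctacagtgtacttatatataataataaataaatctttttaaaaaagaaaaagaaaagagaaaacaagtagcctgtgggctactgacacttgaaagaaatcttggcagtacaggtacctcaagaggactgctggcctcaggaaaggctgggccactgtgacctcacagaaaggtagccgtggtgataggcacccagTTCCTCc
Lyz2 promoter, chr10:117282273-117282522, minus strand: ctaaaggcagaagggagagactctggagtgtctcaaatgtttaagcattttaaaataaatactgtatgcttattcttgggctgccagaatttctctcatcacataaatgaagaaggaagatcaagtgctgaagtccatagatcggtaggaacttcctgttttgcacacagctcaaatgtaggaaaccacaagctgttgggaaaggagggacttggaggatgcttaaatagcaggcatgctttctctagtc
The marked letters began 164 bases before the start in Ctss, as GAGGAA, and 7 bases before it in Aif1, as TTCCTC, and Lyz2 had no match. Windows of 7 of the 10 genes were searched, 8 in all since Ptprc has 2, and not those of Csf1r, C1qa and Adgre1. Of the 8, 5 held GAGGAA (1 of the 2 of Ptprc, and those of Cd68, Ctss, Aif1 and C1qb), beside 23.3% of 32851 mouse windows of that length. The longer GAGGAAGT, which contains it, was in 0 of the 8 and in 2.44% of all windows. The letters and the genes shown were chosen after the values were seen, and a match is a description, not a site.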

How the data were processed

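Total RNA of whole ovaries was labelled with Cy3 and read on Agilent 4x44K arrays (design 014868), per the labels' protocols. The deposited scanner files hold background-subtracted spot intensity from Agilent Feature Extraction. Its version is 10.7.3.1 per the file headers, while the submitters' processing notes give 9.5. The deposited matrix holds log2 values, equal to the scanner log2 intensity plus 1 constant per array (at least 99.5% of values within 0.01). Control spots and 51 to 109 outlier spots per array were left out, and 0 spots were saturated. The log2 intensity minus the 75th percentile of the array was used, 62.5% to 75.1% of probes were well above background, and the 29201 probes kept were above background in every array of some group. The brightest probe stood for a gene, and 28223 probes took their names from a RefSeq table (GRCm38.p6).

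The fit was limma 3.58.1 (lmFit, eBayes) in R 4.3.3 over 18 arrays with 6 groups and the run as terms, 11 residual degrees of freedom, and adjustment over 19298 genes. The run was read from the form of the file names and matches the scan day. Tested on simulated data, the fit recovered 35.8%, 37.3% and 38.8% of 1.5-fold genotype changes, for E15.5, E17.5 and P0 in turn, and 74.6%, 74.6% and 73.1% of 2-fold changes. Each simulation changed 67, 67 and 66 of the 19298 genes by 1.5-fold, 2-fold and 3-fold, with independent normal noise. In the data 18.3% of genes were called higher and 16.1% lower at P0, so these shares need not describe the P0 test. The number of arrays limits the precision.

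Same-numbered arrays of the genotypes correlated in their deviations at 0.12, 0.40 and 0.45 at E17.5, so numbers were taken to pair samples there. Wild type 1 with knockout 2 (0.32) and wild type 2 with knockout 1 (0.28) exceeded the first of these, and both arrays numbered 3 shared run A and a slide. An array numbered 3 against one numbered 1 or 2 gave -0.26, -0.42, -0.27 and -0.48. The run was not removed from these deviations, so they cannot tell pairing from run. At E15.5 (0.18, 0.20 and -0.12) and P0 (0.15, 0.10 and 0.08) numbers were not taken to pair samples. The replicate block still tied same-numbered arrays of the genotypes at every stage. For steps between stages it tied same-numbered arrays of the same genotype across stages. The labels give numbers and no pairing, so results with this block rest on an assumption. Alternatives were other background correction, normalization, scaling, filters, moderation and probe rules, the matrix values, no run term, the slide as a random block, fewer stages, the replicate block, run B only, and leaving out each array. For a genotype difference within a stage, leaving out an array of another stage changes its spread and adjusted p but not the difference. The matrix values had a 75th percentile of 9.62 on every array and so nearly repeat the main scaling. Counts of alternatives include both kinds. Leaving out the pair of arrays highest in S100a9 was chosen after seeing the data.

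The genes and lists were chosen with earlier results of these data known. All 10 genes could be named, and in each comparison up to 4 genes per list by smallest adjusted p, with the 8 most alike. Those printed were picked from them after values were seen. Residual correlations were planned without p-values, and the permutation tests were added after the correlations had been seen. Plots were made in Python 3.11.15 by matplotlib 3.10.9.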

Additional observations from a re-analysis of the deposited data

Results flagged for a closer look

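The genotype difference changed between E17.5 and P0, by the test of that change itself, for 8 genes of the related lists. It was called for 0 of the 10 macrophage and leukocyte genes and for 10.4% of all genes. No test set the share called in these lists apart from that of all genes, so the 8 are described singly and not as a trait of the lists. Calls up and down were 1 and 0 of 25 other macrophage and myeloid genes, and 2 and 1 of 13 ligands and receptors. They were 0 and 0 of 11 complement genes and 0 and 1 of 11 genes for clearing dying cells. Of 14 lysosomal genes they were 1 and 0, and of 6 class II genes 1 and 1. Endothelial genes had 1 and 0 of 7 and germ cell genes 2 and 0 of 5. For T, B and NK cell genes it was 0 and 1 of 10. Il34, a ligand of the CSF1 receptor, had a difference of -0.25 at E17.5 and -2.03 at P0, a change of -1.78 (limma adjusted p = 0.000547). Cxcl12, a stromal chemokine, had a difference of 0.00 at E17.5 and 0.63 at P0, a change of 0.63 (limma adjusted p = 0.00509). Csf2ra, the alpha chain of the GM-CSF receptor, had a difference of -0.06 at E17.5 and 0.40 at P0, a change of 0.46 (limma adjusted p = 0.0134). The alternatives kept the call of Il34 in all cases and lost that of Cxcl12 in 1 of 31 and of Csf2ra in 2 of 31. Maf, a transcription factor, had a difference of -0.11 at E17.5 and 0.50 at P0, a change of 0.61 (limma adjusted p = 0.00818). Cd36, a scavenger receptor, had a difference of 0.77 at E17.5 and -0.41 at P0, a change of -1.18 (limma adjusted p = 0.00303). Lamp2, a lysosomal membrane protein, had a difference of 0.02 at E17.5 and 0.44 at P0, a change of 0.41 (limma adjusted p = 0.0268). The other Lamp2 probes disagreed on the P0 difference. The call of Maf was lost in 4 of 31 alternatives, that of Cd36 in 0 of 31 and that of Lamp2 in 11 of 31. H2-Aa, a class II chain, had a difference of 0.18 at E17.5 and -1.59 at P0, a change of -1.77 (limma adjusted p = 0.00380). H2-DMa, a class II peptide loader, had a difference of 0.06 at E17.5 and 0.78 at P0, a change of 0.71 (limma adjusted p = 0.0491). H2-Aa was above background on only 1 of 3 arrays in each E17.5 group, so its E17.5 values lie close to background. The call of H2-DMa was lost in 22 of 31 alternatives. Groups of 3 arrays were too small to test for outlying samples.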

How the results depend on the processing

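The counts of called genes among the 10 depended on single arrays. For the genotype difference at E17.5 the count of 1 became 0 with array median scaling, no filter, no run term, only the stages compared, the replicate block, run B only or without the pair of arrays highest in S100a9, and ranged from 0 to 1 when each array was left out. At P0 the count of 3 became 1 with no filter, 0 with only the stages compared, 1 with the replicate block and 1 without that pair, with 0 to 4 over single arrays left out (0 without wild type replicate 2, 1 without knockout replicate 3). Over the mean of the stages the count of 3 became 0 without the pair, with 1 to 5 over single arrays (5 without E15.5 knockout replicate 1, and 1 without replicate 3 of either E17.5 group). From E15.5 to E17.5 in wild type the count of 3 became 1 with the replicate block, with 0 to 3 over single arrays (0 without E17.5 knockout replicate 3, 1 without E17.5 wild type replicate 3). In the knockout the count of 6 became 3 with array median scaling, 2 with the replicate block and 0 without the pair, with 0 to 6 over single arrays (0 without E17.5 knockout replicate 3, 3 without E15.5 knockout replicate 1). From E17.5 to P0 in wild type the count of 1 became 6 with array median scaling and 3 without the pair, with 1 to 3 over single arrays (3 without P0 wild type replicate 2), and in the knockout the count of 4 ranged from 3 to 4. For the change of the genotype difference from E17.5 to P0 the count of 0 became 1 without E17.5 wild type replicate 2. The replicate block changed no other count of the 10 by over 1.5 times. Of all differences tried, 2 changed sign, both with no run term: Maf from E15.5 to E17.5 in wild type (0.0893 in place of -0.46) and Itgb2 in the knockout (-0.0880 in place of 0.96). The cause of these shifts was not tested. Array median scaling moved the median of all genes from 0.03 to -0.18 for the step from E15.5 to E17.5 in wild type, and from 0.01 to -0.15 for that from E17.5 to P0. The calls that were higher went from 2953 of 5089 to 1598 of 5711 and from 4268 of 8353 to 2686 of 8559 there, and from 2272 of 4199 to 992 of 3861 for the first step in the knockout. For the change of the genotype difference from E17.5 to P0 they went from 826 of 2008 to 1477 of 2151. Over all genes the E15.5 calls numbered 312, and 40 without the run term. At E17.5 the calls numbered 808, and 385 with array median scaling, 463 with no filter and 350 without the run term.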

Other observations

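Some scavenger receptor and complement genes changed between stages in both genotypes. From E15.5 to E17.5, 4 of 11 complement genes rose in wild type and 3 in the knockout, and 0 fell. Of all genes 15.3% and 11.8% rose there, and 11.1% and 9.99% fell. From E17.5 to P0, 1 of the 11 rose and 1 fell in wild type, and 0 rose and 1 fell in the knockout. Of all genes 22.1% and 18.2% rose in that step, and 21.2% and 19% fell. The genes named next were picked after their values were seen. Stab1, a scavenger receptor of macrophages and sinusoidal endothelium, fell from E17.5 to P0 by 0.94 ± 0.18 in wild type and 0.91 ± 0.18 in the knockout, and Stab2, its endothelial relative, by 0.96 ± 0.14 and 0.40 ± 0.14. Cfp, properdin, fell by 0.61 ± 0.12 and 0.53 ± 0.12. C3, the central complement component, rose from E15.5 to E17.5 by 2.14 ± 0.55 and 1.75 ± 0.55, and C2 by 0.37 ± 0.10 and 0.72 ± 0.10. H2-Ab1, a class II chain, fell over the same step by 1.95 ± 0.20 and 2.38 ± 0.20. All of these passed at an adjusted p under 0.05 in limma. They share arrays with the steps described above, and alternatives were not run on them.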
